A study of Homo sapiens with 16 samples.

Results

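RNF, TRIM and F-box genes encode 3 large groups of ubiquitin ligases, the enzymes and substrate receptors that choose which proteins are tagged with ubiquitin. The members were taken by symbol from protein-coding genes of GENCODE release 44: RNF and a number, with or without A or B; TRIM and a number; and FBXL, FBXO or FBXW and a number. The rule used no measured value. It gave 213 of the 60107 genes in the count files, of which 84 were RNF, 67 TRIM and 62 F-box genes, the last made up of 17 FBXL, 36 FBXO and 9 FBXW genes. Ligases of the same families that carry other symbols, such as RING1 or CCNF, are not among them.

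The cells were U2OS-TR, an osteosarcoma cell line that expresses the tetracycline repressor. The transgene line carries ΔN-RNMT, a cytoplasmic and catalytically inactive form of the cap methyltransferase RNMT with a nuclear export signal, behind a CMV promoter with tetracycline operators. It is 1 clone, selected with G418 and chosen for its expression. The study asked how blocking cap methylation in the cytoplasm changes mRNA levels there, and 4 groups were sequenced: Control (transgene line without doxycycline, n = 5), Induced (transgene line with doxycycline, n = 5), NoDox (parental U2OS-TR without doxycycline, n = 3) and WithDox (parental U2OS-TR with doxycycline, n = 3). The treated cells received 1 µg/ml doxycycline 48 h after they were split and were collected 24 h later, although the treatment field of every library lists that dose. The files hold tags at mRNA 3′ ends counted per gene in RNA of the cytoplasmic extract, so RNA held in the nucleus or lost from the extract was not counted, and with bulk RNA fewer expressing cells and less RNA per cell cannot be told apart.

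RING finger (RNF) ligases bind an E2 enzyme loaded with ubiquitin through a zinc-binding RING domain and help to pass the ubiquitin to a bound substrate. The RING-between-RING ligases among them take the ubiquitin onto themselves first. TRIM proteins carry a RING domain, B-boxes and a coiled coil, and many act in innate immunity or in transcription. F-box proteins are not RING proteins: they hold the substrate in SCF complexes, where SKP1 and CUL1 link them to the RING protein RBX1, and they are divided by what they bind substrates with, leucine-rich repeats in FBXL, WD40 repeats in FBXW and other domains in FBXO. NEDD8 on the cullin switches the complex on, and the COP9 signalosome takes NEDD8 off.

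Because the study turned to mRNAs with a 5′ terminal oligopyrimidine (TOP) start, the start sites of the members are shown first. RefSeq starts on GRCh38.p14 were found for 170 of the 213 members. A start was called TOP-like if its first base was C and at least 4 further bases were C or T, which 11 of the 170 members had at 1 or more starts (6.47%), compared with 6.32% of protein-coding genes, 5.14% of all genes in the table and 67.7% of 65 ribosomal protein genes. Of the 117 tested members with a start, 6 had one: RNF220, RNF7, FBXL4, FBXW4, FBXW7 and TRIM2. The first 5 of these are printed 5′ to 3′, from 10 bases before the start to 15 bases from it, with the pyrimidine run in capitals, followed by 4 members with large or separate changes in RNA level that have no such run, RNF130 by 1 base.
RNF220 (1 of 4 listed starts, chr1:44423991-44424015, + strand): cttccctggcCTCTTatcttcatca
RNF7 (chr3:141738288-141738312, + strand): agccttccgcCTTCCCCaagccaac
FBXL4 (chr6:98947932-98947956, - strand): tccgcgtcttCCTTCCgggtcgcgc
FBXW4 (1 of 2 listed starts, chr10:101695156-101695180, - strand): gtgtcgcctcCTCCCggggcggcgg
FBXW7 (1 of 4 listed starts, chr4:152536078-152536102, - strand): tcccgcccctCTCTCTggagtgagg
RNF130 (chr5:180071745-180071769, - strand): cccgccccgcctctaggcgccggcc
FBXL12 (chr19:9819065-9819089, - strand): ttctggacttggtcttagttcccag
RNF123 (chr3:49689547-49689571, + strand): cgccgtagccaagaggttgggcgga
RNF181 (chr2:85595735-85595759, + strand): cgagggctgtgtcagaaggctgggc
Of these 5 genes with a TOP-like start RNF220 fell, FBXL4 rose, and RNF7, FBXW4 and FBXW7 did not pass the test (log2 fold changes in the next paragraphs, and -0.27 for FBXW4). These calls changed with offsets for the GC content of the transcripts, with which RNF220 (-0.67), RNF7 (-0.65) and FBXW7 (-0.89) were called lower, while FBXL4 (0.96, adjusted P = 0.0553 from edgeR) and FBXW4 (0.15) were not called. Among 22 members that fell and have a listed start, 1 had a TOP-like start, and among 34 that rose, 1 did. Where a gene has several starts, the counts do not tell which was used.

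Libraries of the transgene line held 12527183 to 23251834 gene counts and those of the parental line 1473286 to 3214808. The members took up 0.583% ± 0.0231 (SD, n = 5) of gene counts in Control and 0.583% ± 0.0143 (SD, n = 5) in Induced libraries. RNMT, which the transgene was made from, had 55.5 to 112 tag counts per mega-count (CPM) after TMM scaling in Control and 265 to 457 CPM in Induced libraries (log2 fold change 2.22, SE 0.23, adjusted P = 0.00806 from edgeR), so each library matched its label. Of the mesenchymal markers SPARC, VIM, COL1A1 and RUNX2 were counted, whereas SP7, BGLAP and COL1A2 were at 0 in Control, as was the liver marker ALB, and the epithelial marker EPCAM had a mean of 7.84 CPM. A pair of libraries stood apart: Control 5 lay nearest the Induced group for 33 of the 40 members that rose and 25 of the 28 that fell, and Induced 2 lay nearest the Control group for 35 and 24 of them. RNMT was 112 CPM in Control 5, above the 55.5 to 74.4 CPM of Control 1 to 4, and 359.7 CPM in Induced 2.

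In all, 18 members had no count in any of the 16 libraries. They were FBXL6, RNF31, RNF113B, RNF133, RNF148, RNF175, RNF186, RNF225 and TRIM10, TRIM40, TRIM42, TRIM60, TRIM61, TRIM64, TRIM72, TRIM74, TRIM75 and TRIM77. RNF31, the catalytic subunit of the linear ubiquitin chain assembly complex, overlaps PSME2 on the opposite strand, and whether the way overlapping genes were counted set its 0 was not tested. Genes were tested where the mean of the scaled counts was above 20, which 149 of the 213 members passed in the transgene line: 62 RNF, 40 TRIM, 12 FBXL, 28 FBXO and 7 FBXW genes. The other 64 had at most 189 counts over the 10 libraries together.

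Induction of ΔN-RNMT was accompanied by a rise of 40 members and a fall of 28 at an adjusted P under 0.05. That is 26.8% and 18.8% of the 149 tested, where 20.0% and 19.8% of all 13038 genes tested rose and fell (39.8% in all). With libraries scaled by their totals alone, which moved the median over all genes from 0.04 to 0.28, 60 members rose and 15 fell. Of all genes 30.8% rose and 10.8% fell in that fit. Among RNF genes 10 rose and 12 fell of 62 (median log2 fold change 0.04, as for all genes), and among TRIM genes 10 rose and 9 fell of 40 (median -0.06, and 0.17 with totals alone). Among F-box genes 20 rose and 7 fell of 47 (42.6% and 14.9%, median 0.45). The FBXL genes stood highest, with 8 of 12 up, none down and a median of 0.97, the FBXO genes had 11 up and 5 down of 28 (median 0.36), and the FBXW genes 1 up and 2 down of 7 (median -0.27). The FBXL count rested on single libraries: it was 1 without Control 1, Control 2, Induced 1 or Induced 4, 2 without Control 4, Induced 3 or Induced 5, 3 without Control 3, 9 without Control 5 and 8 without Induced 2, with medians from 0.66 to 1.25. With 1 surrogate variable in the model edgeR called 1 of all genes tested and no FBXL gene, and the FBXL median was 0.41. No test of a list was made, and these shares are descriptions beside the background.

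**Figure D1:**
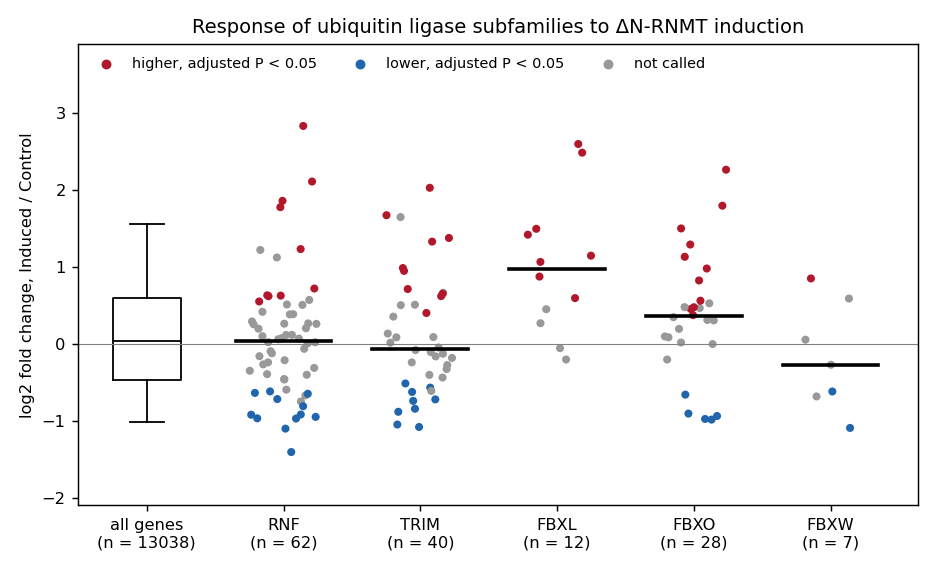
Log2 fold change of each tested member between Induced and Control libraries, by subfamily, with the thick line at the median, red and blue points for genes called higher and lower, and a box (quartiles, with whiskers at the 5th and 95th percentiles) for all 13038 genes tested. The FBXL column has 8 of 12 points in red and none in blue, and its median of 0.97 lies above the medians of the RNF (0.04) and TRIM (-0.06) columns.

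F-box genes were next examined one by one. FBXL12, whose protein takes cyclin-dependent kinase inhibitors and Ku80 to SCF, had 0.355, 0.233, 0.333, 0.483 and 4.07 CPM in Control libraries 1 to 5 and 6.70, 1.5, 9.43, 6.58 and 7.70 CPM in Induced libraries 1 to 5. Control 1 to 4 lay below every Induced library, while Control 5 lay above Induced 2, so the groups overlap. For FBXL12 this was a log2 fold change of 2.49 (SE 0.75, edgeR adjusted P = 0.0261). FBXL16, another leucine-rich repeat protein, had 0.912, 0.642, 0.555, 0.821 and 3.38 CPM in Control and 11.9, 1.41, 10.7, 8.32 and 6.93 CPM in Induced libraries. Again Control 5 was the one Control library above Induced 2. FBXL16 changed by 2.60 on the log2 scale (SE 0.60, edgeR adjusted P = 0.0175). FBXL7, which is known to target Aurora A, was a member whose groups did not overlap, at 3.14, 2.33, 2.38, 3.38 and 3.64 CPM in Control and 5.36, 3.75, 4.18, 4.09 and 5.21 CPM in Induced libraries. In log2 terms FBXL7 differed by 0.60 (SE 0.20, adjusted P = 0.0339 from edgeR).

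Also rising among FBXL genes were FBXL4, a mitochondrial protein that restrains mitophagy (1.42), FBXL2, a lipid-anchored receptor (1.15), FBXL20 (0.88) and FBXL19, a CpG-binding protein (1.5, adjusted P = 0.0477 from edgeR). FBXL19 rested on 1 library. It had 6.38, 6.24, 7.15, 8.64 and 8.14 CPM in Control and 6.92, 9.11, 8.86, 16.4 and 62 CPM in Induced libraries, and without Induced 5 its log2 fold change was 0.50. FBXL5, the iron-sensing receptor for IRP2, had a log2 fold change of 0.27 (SE 0.17, adjusted P = 0.219 from edgeR), and FBXL17, which surveys dimers of BTB proteins, had 0.45 (adjusted P = 0.0619) although its groups did not overlap.

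Among FBXO genes, FBXO4, a receptor reported for cyclin D1, had 1.01, 0.817, 1.22, 1.01 and 2.60 CPM in Control and 9.75, 1.88, 6.14, 5.61 and 9.24 CPM in Induced libraries. Only Control 5 lay above an Induced library, and that library was Induced 2. For FBXO4 this was a log2 fold change of 2.27 (SE 0.45, edgeR adjusted P = 0.0175). FBXO9, which targets TEL2 and TTI1, had 52.5, 49.1, 44.5, 57.1 and 62.9 CPM in Control and 69.0, 67.1, 63.6, 68.9 and 76.4 CPM in Induced libraries. The change was small and the groups did not overlap. FBXO9 changed by 0.37 on the log2 scale (SE 0.14, edgeR adjusted P = 0.0469). FBXO21 had 24.5, 22.5, 26.0, 27.0 and 19.7 CPM in Control and 31.5, 29.0, 28.5, 36.0 and 39.0 CPM in Induced libraries, again without overlap. In log2 terms FBXO21 differed by 0.45 (SE 0.15, adjusted P = 0.0347 from edgeR). FBXO5 (EMI1), the inhibitor of the anaphase-promoting complex, rose by 0.48 (SE 0.17, adjusted P = 0.0458 from edgeR), and its estimate turned to -0.02 (adjusted P = 0.949) with offsets for GC content. The other FBXO genes that rose were FBXO46 (1.80), FBXO34 (1.5), FBXO3 (1.29), FBXO30 (1.13), FBXO48 (0.98), FBXO38 (0.82) and FBXO45 (0.56), the partner of MYCBP2 in a ligase that has no cullin.

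The 5 FBXO genes that fell were FBXO44, FBXO2, FBXO24, FBXO17 and FBXO16, with log2 fold changes from -0.98 to -0.66. FBXO2, FBXO17 and FBXO44 belong to the small subfamily with an F-box-associated domain, through which FBXO2 binds high-mannose glycoproteins. This grouping was made after the values were seen. FBXO2 had 32.4, 29.1, 35.4, 25.5 and 18.4 CPM in Control and 12.0, 19.2, 11.3, 11.6 and 17.4 CPM in Induced libraries. Control 5 lay below Induced 2 and above the other Induced libraries. The remaining genes of that subfamily, FBXO6 and FBXO27, were below the count filter. FBXO2 and FBXO44 overlap at their 5′ ends on opposite strands of chromosome 1, and the sources used here do not state that strand was used in counting. FBXO7 (0.10), FBXO11 (0.09) and FBXO22 (0.47), fixed for naming whatever they did, did not pass the test (lowest adjusted P = 0.168, FBXO22).

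FBXW11 (βTrCP2), the receptor for phosphorylated IκB and β-catenin, had 21.8, 19.4, 19.4, 27.4 and 50.2 CPM in Control and 54.8, 37.4, 46.5, 52.7 and 58.2 CPM in Induced libraries. Control 5 stood inside the Induced range and the other Control libraries below it. For FBXW11 this was a log2 fold change of 0.85 (SE 0.27, edgeR adjusted P = 0.0296). FBXW5 had 307, 329, 527, 248 and 162 CPM in Control and 106, 199, 109.8, 142 and 181 CPM in Induced libraries, with Control 5 inside the Induced range. FBXW5 changed by -1.09 on the log2 scale (SE 0.30, edgeR adjusted P = 0.0201). FBXW9 was lower in all Induced libraries, at 9.37, 10.4, 13.8, 8.64 and 7.32 CPM in Control and 5.95, 6.81, 7.22, 6.25 and 5.98 CPM in Induced libraries. In log2 terms FBXW9 differed by -0.62 (SE 0.18, adjusted P = 0.0246 from edgeR). FBXW7, the tumour suppressor that removes cyclin E, MYC and Notch and has a TOP-like start among its listed starts, had 71.9, 73.6, 95.1, 59.8 and 38.6 CPM in Control and 41.2, 63.0, 32.7, 44.7 and 29.4 CPM in Induced libraries. Its log2 fold change of -0.68 (SE 0.26) lay just outside the threshold with an adjusted P of 0.0549 from edgeR. Next to it outside were TRIM43 (0.0517) and TRIM14 (0.0530), and just inside were FBXO9 (0.0469), FBXL19 (0.0477) and FBXO16 (0.0485).

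**Figure D2:**
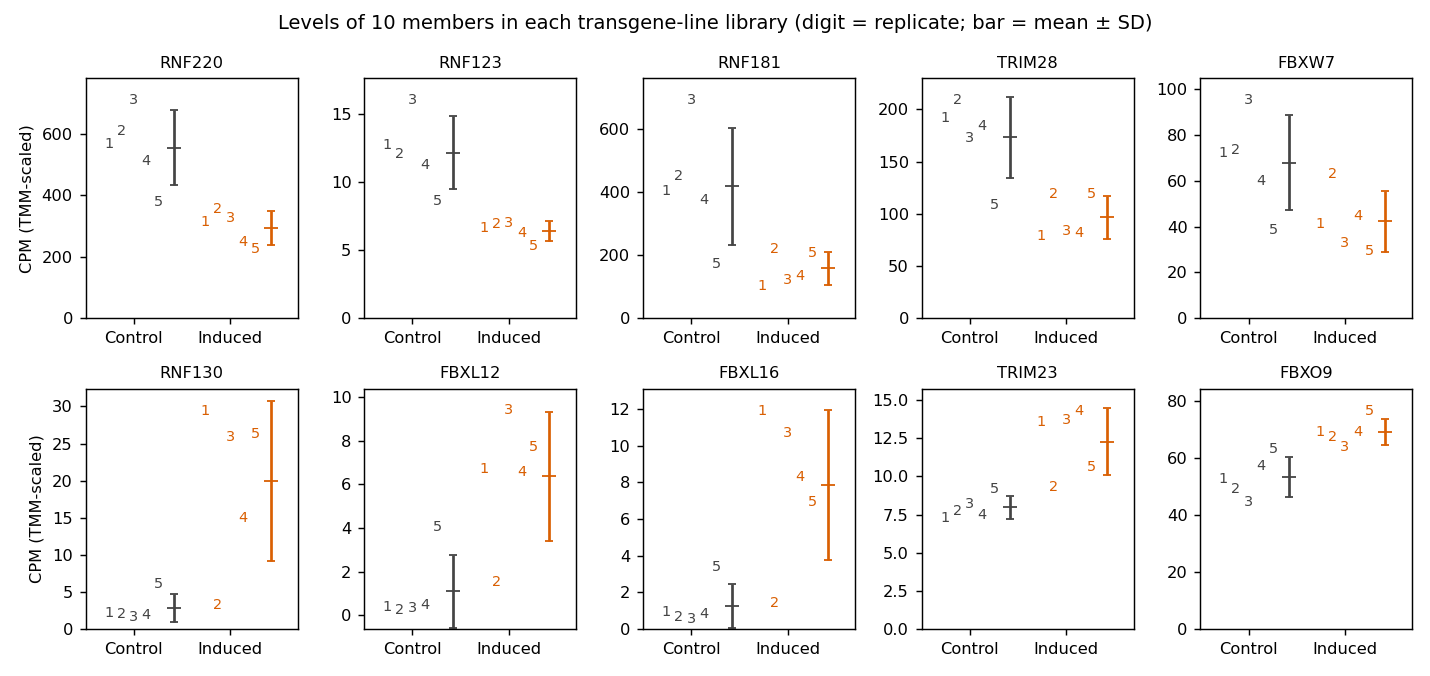
TMM-scaled CPM (linear axis) of 10 members in each Control and Induced library, with the replicate number as the plotting symbol and the mean and SD (n = 5 per group) beside each group. Control 5 and Induced 2 lie toward the other group in most panels, and the groups do not overlap for RNF220, RNF123, TRIM23 and FBXO9.

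The RING finger genes rose and fell in similar numbers. RNF220, a nuclear ligase known to act on SIN3B and to stabilise β-catenin, had 566, 609, 709, 509.9 and 378 CPM in Control and 314, 356, 325, 246 and 225 CPM in Induced libraries. Every Induced library was below every Control library. For RNF220 this was a log2 fold change of -0.92 (SE 0.20, edgeR adjusted P = 0.0175). RNF220 lies at chr1:44405194-44651723 of GRCh38 on the + strand and overlaps TMEM53 on the other strand. RNF123 (KPC1), which helps to degrade the inhibitor p27, had 12.8, 12.1, 16, 11.3 and 8.61 CPM in Control and 6.62, 6.90, 7.03, 6.25 and 5.27 CPM in Induced libraries. These groups did not overlap either. RNF123 changed by -0.92 on the log2 scale (SE 0.18, edgeR adjusted P = 0.0175). RNF135 (Riplet), which activates the RNA sensor RIG-I, had 3.80, 4.55, 3.88, 5.22 and 3.94 CPM in Control and 2.68, 3.29, 2.72, 2.16 and 3.08 CPM in Induced libraries, without overlap. In log2 terms RNF135 differed by -0.62 (SE 0.18, adjusted P = 0.0243 from edgeR).

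The largest falls among RNF genes were RNF181 and RNF187. RNF181 had 404, 449, 689.8, 374 and 171 CPM in Control and 103, 221, 122, 134 and 207 CPM in Induced libraries. Control 5 lay within the Induced range and the other Control libraries were above it. For RNF181 this was a log2 fold change of -1.41 (SE 0.34, edgeR adjusted P = 0.0175). RNF187, a coactivator of c-Jun, had 330.4, 345, 502, 283 and 170.1 CPM in Control and 139.5, 208, 149, 128 and 136 CPM in Induced libraries, with Control 5 below Induced 2. RNF187 changed by -1.10 on the log2 scale (SE 0.26, edgeR adjusted P = 0.0175). The remaining RNF genes that fell were RNF25, RNF169, RNF167, RNF26, RNF121, RNF41 and RNF40, with log2 fold changes from -0.97 to -0.64. RNF40 and RNF20 form the ligase for histone H2B. RNF40 fell by 0.64 (SE 0.19, adjusted P = 0.0248 from edgeR), whereas RNF20 had a log2 fold change of 0.01 (SE 0.17, adjusted P = 0.971), and the difference between the partners was not tested. With GC offsets RNF40 lost its call (-0.24, adjusted P = 0.165 from edgeR) and RNF20 was at -0.20 (adjusted P = 0.377).

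The largest rise of all members was that of RNF130, a membrane ligase related to Drosophila Goliath. It had 2.18, 2.04, 1.61, 1.88 and 6.10 CPM in Control and 29.4, 3.24, 25.9, 14.9 and 26.2 CPM in Induced libraries. Induced 2 was close to the Control libraries and below Control 5. In log2 terms RNF130 differed by 2.83 (SE 0.56, adjusted P = 0.0175 from edgeR). RNF182, a membrane ligase, rose by 2.11, RNF146, which recognises poly(ADP-ribose) on axin, by 1.86, and RNF138, which acts at DNA ends, by 1.78. RNF19A (dorfin), a RING-between-RING ligase, had 4.36, 3.38, 6.27, 6.95 and 5.93 CPM in Control and 7.37, 8.45, 7.79, 8.28 and 9.72 CPM in Induced libraries. The groups did not overlap. For RNF19A this was a log2 fold change of 0.63 (SE 0.21, edgeR adjusted P = 0.0332). The other RNF genes that rose were RNF144B (1.23), RNF103 (0.72), RNF144A (0.63), RNF145 (0.62) and RNF11 (0.55).

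Of the RNF genes fixed for naming, RNF2, RNF4, RNF5, RNF7, RNF8, RNF14, RNF20, RNF114, RNF168 and RNF213 did not pass the test. RNF14 had the largest of these estimates, 1.12 (SE 0.44, adjusted P = 0.0587 from edgeR). RNF8 and RNF168, which act in sequence on chromatin at DNA breaks, had -0.35 (SE 0.15) and -0.21 (SE 0.21). RNF7, the RING subunit paired with CUL5 and a gene with a TOP-like start, had -0.24 (SE 0.15, adjusted P = 0.209). With GC offsets 3 of these genes were called: RNF7 at -0.65 (adjusted P = 0.0277 from edgeR) and RNF8 at -0.62 (0.0320) as lower, and RNF213 at 0.47 (0.0351) as higher.

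Among TRIM genes, TRIM21, the cytosolic antibody receptor, had 1.67, 1.17, 0.943, 2.22 and 6.19 CPM in Control and 9.82, 3.75, 10.7, 10.3 and 15.9 CPM in Induced libraries. Control 5 lay above Induced 2 and below the other Induced libraries. TRIM21 changed by 2.03 on the log2 scale (SE 0.51, edgeR adjusted P = 0.0177). TRIM23, which joins a RING to an ARF domain, had 7.30, 7.76, 8.21, 7.48 and 9.18 CPM in Control and 13.5, 9.29, 13.7, 14.3 and 10.6 CPM in Induced libraries. The groups did not overlap. In log2 terms TRIM23 differed by 0.62 (SE 0.16, adjusted P = 0.0187 from edgeR). The other TRIM genes that rose were TRIM59 (1.67), TRIM36 (1.38), TRIM35 (1.33), TRIM4 (0.99), TRIM6 (0.95), TRIM5 (0.71), TRIM37 (0.65) and TRIM32 (0.40). TRIM5 restricts retroviral capsids and TRIM37 acts at centrosomes.

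TRIM28 (KAP1), the corepressor recruited by KRAB zinc finger proteins, had 192, 209, 173, 185 and 108 CPM in Control and 78.9, 119, 84.0, 81.6 and 119 CPM in Induced libraries. Control 5 lay inside the Induced range. For TRIM28 this was a log2 fold change of -0.84 (SE 0.21, edgeR adjusted P = 0.0177). TRIM26 had 93.4, 99.9, 154, 73.9 and 47.2 CPM in Control and 35.6, 62.6, 38.5, 38.2 and 46.6 CPM in Induced libraries, with Control 5 below Induced 2. TRIM26 changed by -1.08 on the log2 scale (SE 0.28, edgeR adjusted P = 0.0187). The other TRIM genes that fell were TRIM47, TRIM56, TRIM58, TRIM13, TRIM68, TRIM11 and TRIM16, with log2 fold changes from -1.05 to -0.51. TRIM24 and TRIM33, chromatin readers related to TRIM28, had -0.18 (SE 0.20) and 0.13 (SE 0.18), and TRIM25 and TRIM8 had 0.09 (SE 0.14) and -0.08 (SE 0.14). None of these passed the test, and the lowest adjusted P among them was 0.456 from edgeR.

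Counted by groups that do not overlap, 7 members were higher in all Induced libraries (RNF19A, FBXO9, TRIM23, FBXO21, FBXL7, and FBXL17 and FBXW8, which were not called) and 4 were lower (RNF123, RNF220, FBXW9 and RNF135). Over all genes tested the shares were 3.08% and 4.22%. For 45 of the 68 called members the span of another annotated gene, introns included, overlaps on the opposite strand, and for 25 on the same strand. The same was not counted for members not called or for all genes. Whether these overlaps reach the counted 3′ ends, where tags could be shared with a neighbour, was not examined. An annotated pseudogene of the same name exists for 4.

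Role lists are given beside the 20.0% of all genes that rose and the 19.8% that fell. Membrane-anchored members had 8 up and 4 down of 22 tested (median 0.28), RING-between-RING members 3 up and none down of 7 (0.63) and cell cycle F-box members 3 up and none down of 5 (0.48). Chromatin and DNA damage members had 1 up and 3 down of 12 (-0.20), and antiviral and innate immune members 2 up and 3 down of 12 (0.0024). The genes that ligases work with were read from the same fit. Of 21 tested genes for cullins, SCF core subunits and neddylation, 9 rose and 3 fell (median 0.38). CUL2 (1.92), CUL4B (1.08), CUL5 (0.99), CUL4A (0.72) and CUL3 (0.66) rose with UBA3 (1.31), part of the NEDD8-activating enzyme, whereas NEDD8 itself fell by 0.72 and CUL9 by 0.84. The SCF core genes CUL1 (0.08), SKP1 (0.22) and RBX1 (0.24) did not pass the test, nor did CUL7 (-0.26). Of 10 COP9 signalosome genes 2 rose and 2 fell (median 0.04), with COPS5, its catalytic subunit, at 1.59. Of 32 genes for E1 and E2 enzymes 10 rose and 5 fell (median 0.25), with UBE2D1 at 1.93 and UBE2B at 1.73. Of the ubiquitin genes, RPS27A, which encodes a fusion of ubiquitin to a ribosomal protein, fell by 0.83 and UBB, which encodes a chain of ubiquitins, by 0.67. The list of ubiquitin genes as a whole is not reported here. Ligases of the 3 families under other symbols had 2 up and 4 down of 12 (-0.36), and further RING ligases 6 up and 3 down of 20 (0.29).

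GC content moved with these results. Members that rose had a median transcript GC content of 43.7% and members that fell 56.8%, close to the 42.5% and 57.0% of all genes that rose and fell. Across the 149 members Pearson's r between GC content and log2 fold change was -0.31, and -0.37 across 12922 genes, which are not independent replicates and share the same libraries. By library, r between GC content and the deviation from the gene mean was 0.24 to 0.32 in Control 1 to 4 and -0.09 in Control 5, and -0.39 to -0.32 in Induced 1, 3 and 4, 0.03 in Induced 2 and -0.11 in Induced 5. Control 5 and Induced 2, which stood apart in the members, thus differed from their groups in this measure too, as did Induced 5, which lay next to Control 5. The FBXL genes that rose had a median GC content of 49.7% over the whole transcript, above the 43.7% of all members that rose. FBXL12, FBXL16, FBXL19 and FBXL7, at 54.2% to 67.6%, were GC-rich by that measure. Toward the 3′ end, where tags were counted, these genes had 42.3%, 39.3%, 69% and 38.7%, beside a median of 40% over all genes tested. The offsets were fitted to GC content of the whole transcript. With an offset for GC content fitted in each library 23 members rose and 22 fell, 18 and 16 of them as before, and F-box genes had 10 up of 47 (21.3%, against 11.9% of all genes), 5 of them FBXL. Of the members given library by library, FBXO9, FBXO21, FBXW11, FBXW5, FBXW9, RNF135, RNF19A, TRIM23 and TRIM28 lost their call with the offsets (edgeR adjusted P from 0.0592 for FBXW11 to 0.665 for TRIM23). Of members not called before, FBXO10, RNF44, RNF213, TRIM14 and TRIM65 were called higher and FBXW7, RNF7, RNF8, RNF111, RNF125 and RNF141 lower. FBXL7, FBXL12, FBXL16, FBXL19, FBXO2, FBXO4, RNF123, RNF130, RNF181, RNF187, RNF220, TRIM21 and TRIM26 were called with and without them. The part of GC content in the main counts was otherwise not tested.

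**Figure D3:**
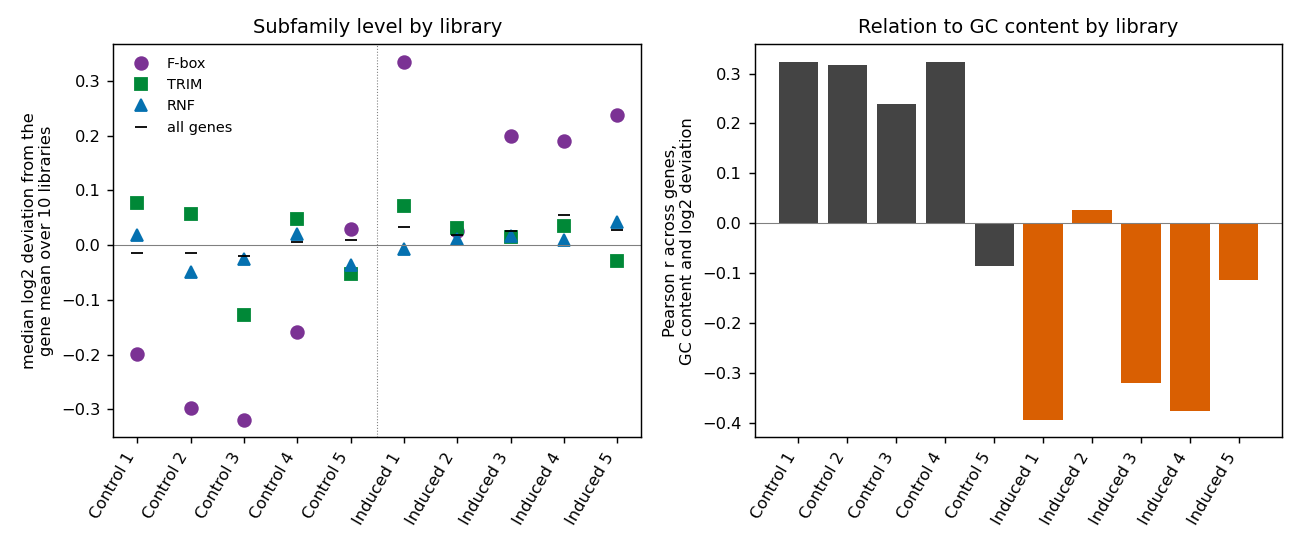
Left, the median over RNF, TRIM and F-box members and over all genes of the log2 deviation from each gene's mean over the 10 transgene-line libraries. Right, Pearson's r across 12922 genes between transcript GC content and that deviation. F-box medians run from -0.32 to 0.03 in Control and from 0.03 to 0.34 in Induced libraries, and r is positive in Control 1 to 4 but -0.09 in Control 5, and negative in the Induced libraries except for 0.03 in Induced 2.

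The level of the F-box genes in each library showed the same pair of libraries. The median deviation of the F-box members was -0.32 to -0.16 in Control 1 to 4 and 0.03 in Control 5, and 0.19 to 0.34 in Induced 1, 3, 4 and 5 and 0.03 in Induced 2. The values for RNF members stayed between -0.05 and 0.04. With Control 5 and Induced 2 both left out, a choice made after seeing the data, 59 members rose and 42 fell, and F-box genes had 25 up of 47 (53.2%, against 33.8% of all genes). Leaving out any other single library lowered the counts instead: F-box genes had 6, 5, 13 and 7 up without Control 1, 2, 3 and 4, and 6, 7, 6 and 10 up without Induced 1, 3, 4 and 5, compared with 23 without Control 5 and 23 without Induced 2. With 1 surrogate variable in the model no member was called by edgeR (43 at an unadjusted P under 0.05), and RNMT was the only gene called. Of 26 called members named by rule, FBXL16, RNF123, RNF130, RNF181, RNF187, RNF220, TRIM21 and TRIM28 were called in all 10 fits that left out 1 library.

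**Figure D4:**
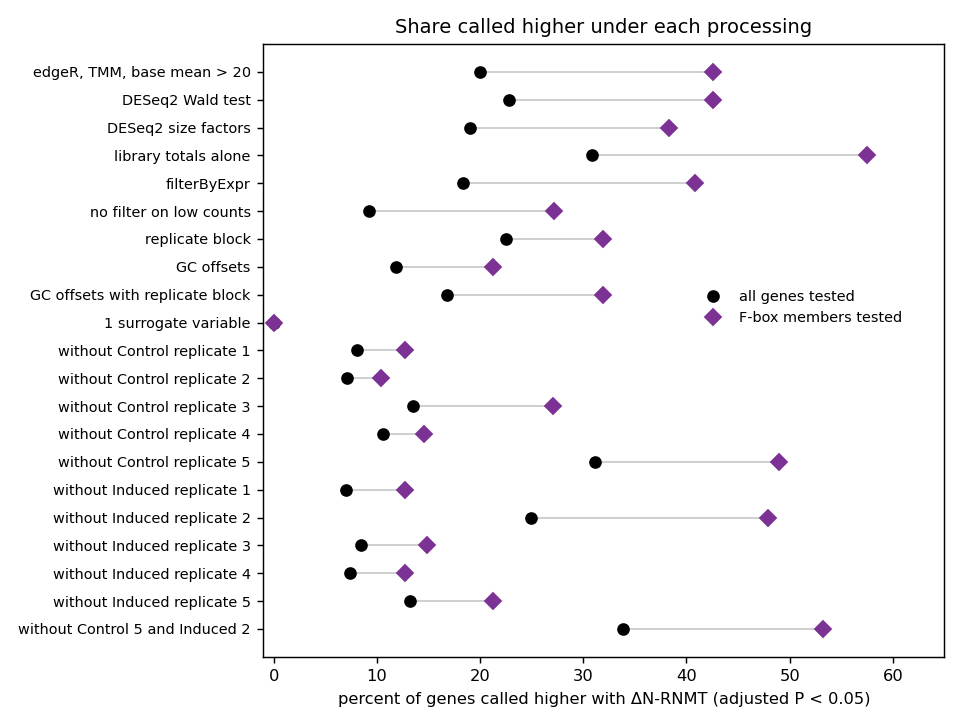
Percent of all genes tested (circles) and of F-box members tested (diamonds) called higher with ΔN-RNMT under each processing, one row per processing. The F-box share lies above that of all genes in every row but that of 1 surrogate variable, where no F-box gene was called, and both shares drop when any 1 library other than Control 5 or Induced 2 is left out.

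The parental line was compared with and without doxycycline to ask what the drug does without the transgene. Of 100 members tested there none was called by edgeR (adjusted P of 0.997 for the lowest), by DESeq2 none either, and 0 of all 9124 genes (0%) were called by edgeR. At an unadjusted P under 0.05 there were 2 members, FBXL19 and RNF5, where 2.93% of all genes passed. FBXL19 had 47.4, 8.32 and 8.18 CPM in NoDox and 4.88, 1.94 and 5.56 CPM in WithDox libraries. NoDox 1 was far above the rest, and the other NoDox libraries also lay above all WithDox libraries. Without NoDox 1 the gene was below the count filter and was not tested. Its log2 fold change was -2.37 (SE 0.79, unadjusted P = 0.0125). RNF5, a ligase of the endoplasmic reticulum, had 64.2, 44 and 55.5 CPM in NoDox and 34.1, 25.6 and 21.5 CPM in WithDox libraries, without overlap (-1.0, SE 0.40, unadjusted P = 0.0285).

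Counted by overlap in the parental line, 8 members were lower in all WithDox libraries and 1, RNF220, was higher, where 4.66% and 4.87% of all genes were. These libraries are shallow and spread widely, with a coefficient of variation of 0.444 against 0.320 in the transgene line. An exact rank test of 3 against 3 libraries, which was not run, could give no two-sided P below 0.1. That floor does not hold for edgeR. MALAT1, an RNA held in the nucleus, was at 1278, 303 and 597 CPM in NoDox and 126, 123 and 118 CPM in WithDox libraries. The groups overlapped for 2 other nuclear RNAs. NEAT1 had 153 to 522 CPM in NoDox and 143 to 314 CPM in WithDox libraries, and KCNQ1OT1 1.75 to 3.00 and 1.04 to 2.38 CPM. The part of nuclear RNA in the values of the members was not tested. By subfamily the median log2 fold changes were 0.03 for 48 RNF, -0.07 for 27 TRIM and -0.06 for 25 F-box genes, with -0.01 for all genes. Within the F-box genes they were -0.99 for 5 FBXL, -0.007 for 16 FBXO and -0.26 for 4 FBXW genes. In the transgene line 12 FBXL genes had passed the count filter. Without NoDox 1 the FBXL median in parental cells was -0.26 over 4 genes. Of 23 members that rose with induction and were tested in both lines, 9 had a positive and 14 a negative log2 fold change with doxycycline in parental cells (median -0.02), and of 22 that fell 11 and 11 did. Over all genes 49.2% were positive and 50.8% negative.

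**Figure D5:**
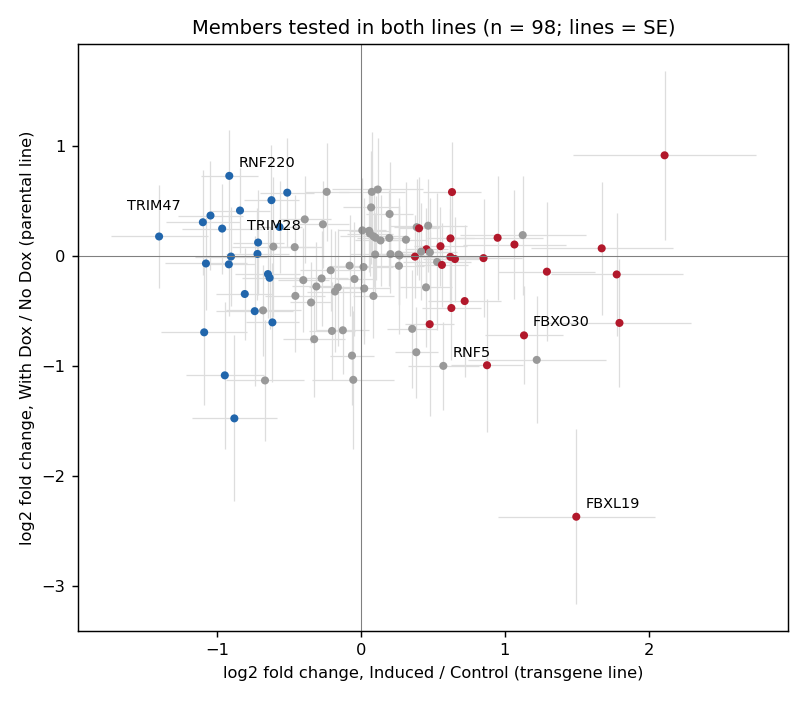
Log2 fold change of 98 members with induction in the transgene line (horizontal) and with doxycycline in the parental line (vertical), with lines for 1 standard error and colours for members called higher (red) or lower (blue) with induction. RNF220 lies at -0.92 and 0.73, and FBXL19 at 1.5 and -2.37.

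Whether the 2 responses differed was tested over all 16 libraries. Of 142 members 1 was called, RNF220, which is 0.704% of them, where 2.98% of all 12265 genes were called. RNF220 had 259, 261 and 469 CPM in NoDox and 670.1, 483 and 486 CPM in WithDox libraries. All WithDox libraries were above all NoDox libraries, opposite to the transgene line, where all Induced libraries were below all Control libraries. The response with induction was lower by 1.88 on the log2 scale (SE 0.40, adjusted P = 0.0372 from edgeR), and the separate fits gave -0.92 with induction and 0.73 in parental cells. The parental response by itself did not pass the test (adjusted P = 0.997). The call was lost in 12 of the 16 fits that left out 1 library, and the highest adjusted P, 0.130, came without NoDox 1. The value stayed between -2.07 and -1.54.

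The next members in that test were just outside the threshold. FBXO30, a ligase of atrophying muscle, had a difference of 1.64 (adjusted P = 0.0504 from edgeR), TRIM28 -1.49 (0.0515), RNF5 1.36 (0.0568), TRIM47 -1.63 (0.0590) and FBXL19 3.68 (0.0592). TRIM28 had 80.9, 80.8 and 89.1 CPM in NoDox and 121, 71.9 and 142 CPM in WithDox libraries, so the parental groups overlap. FBXL members had a median difference of 0.80 over 12 genes and F-box members 0.21 over 43. RNF members had -0.17 over 61 and TRIM members -0.08 over 38, beside -0.09 over all genes. Only 5 of the 12 FBXL genes had passed the count filter in the parental line alone. No F-box gene was called by edgeR (8 at an unadjusted P under 0.05, where 26.1% of all genes passed, and 5 by DESeq2). Of the F-box genes DESeq2 called 4 higher, 2 of them FBXL genes, and 1 lower, where it called 4.79% of all genes higher and 7.16% lower. FBXL genes called higher by edgeR were 0 in the main fit, 1 with totals alone and 1 with GC offsets. The shares of all genes called higher there were 0.775%, 3.35% and 0.897%. Leaving out Control 5 gave 4 FBXL genes, beside 8.45% of all genes, and leaving out Control 1, 2, 3 or 4 gave 0, beside at most 0.0164%. Whether the rise of single FBXL genes was called different from the parental line thus depended on the processing, as did the share of all genes called. The lines were sequenced at different sites, on different machines and to different depths, which for the levels cannot be told apart from the line.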

How the data were processed

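Cytoplasmic RNA of U2OS-TR cells was profiled with QuantSeq REV 3′ libraries (2 µg RNA each). The authors deposited unnormalized tag counts per Ensembl gene, 1 table per library, made with the Lexogen pipeline 2.2.3 for human GRCh38. The aligner, annotation release and use of strand are not given in the sources used here. Tags aligned to more than 1 place (0.561 to 1.33 per gene count in the transgene line) are outside the counts, so genes with close copies keep part of their tags. The 92 spike-in entries, all at 0, and 5 summary entries were left out. The labels gave the groups.

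Genes with a base mean above 20 (counts over DESeq2 size factors) were tested with edgeR 4.0.16 in R 4.3.3 (TMM, quasi-likelihood test, Benjamini-Hochberg over all genes, calls at an adjusted P under 0.05), in separate fits per line and 1 fit of 4 group means for the difference. The standard error is the log2 fold change over the square root of F. The fits were tested on simulated data. Alternatives were DESeq2 1.42.0, other scaling and filters, the replicate number as a block, GC offsets (lowess span 0.5), 1 surrogate variable (sva 3.50.0), each library left out and, added after seeing the data, Control 5 and Induced 2 left out together. Same-numbered libraries did not deviate together (mean correlation 0.0260, from -0.373 to 0.625, in the transgene line), so the fit without the block is the main one.

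Members and lists were chosen with earlier results of these data known. Text names fixed members (some genes are not reported here), the 8 largest rises and falls among called members, those without overlap first, and members with the lowest P or a call in the other comparisons. Other members are named as examples after their values were seen. The Control and Induced libraries are biological replicates in the methods, and the parental libraries came from separate cultures. Sequences and start sites are those of RefSeq on GRCh38.p14, coordinates of genes those of GENCODE 44, which named 56104 genes.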

Additional observations from a re-analysis of the deposited data

Results flagged for a closer look

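For 46 named genes the libraries of the 5 Control and of the 5 Induced samples were each examined for 1 library apart from the other 4, which gave 13 of 92 group values. For independent, normally spread values chance gives about 1 in 20. These genes share the same libraries and many were named because they were called, so the count cannot be held against that rate. Control 5 was apart for 7 members. It was at 6.10 CPM for RNF130 (other Control libraries 1.61 to 2.18), 3.38 for FBXL16 (0.555 to 0.912), 4.07 for FBXL12 (0.233 to 0.483), 6.19 for TRIM21 (0.943 to 2.22), 51.2 for TRIM37 (24.6 to 28.2), 50.2 for FBXW11 (19.4 to 27.4) and 25 for RNF5 (14.1 to 16).

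Control 3 was apart at 171 CPM for TRIM25 (other Control libraries 229 to 240.2) and at 59.5 CPM for FBXO11 (34.9 to 38.2). Induced 2 was apart at 208 CPM for RNF187 (other Induced libraries 128 to 149). Induced 5 was apart at 62 CPM for FBXL19 (6.92 to 16.4), 14.9 CPM for RNF4 (11.7 to 12.3) and 199.995 CPM for TRIM25 (238 to 249). The response of RNF220 differed between the lines by -1.88 on the log2 scale (SE 0.40, adjusted P = 0.0372 from edgeR over all 16 libraries).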

How the results depend on the processing

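Main counts of members in the transgene line were 40 higher and 28 lower, beside 20.0% and 19.8% of all genes. The shares of all genes higher and lower were 30.8% and 10.8% with totals alone and 9.21% and 8.04% without the filter. They were 11.9% and 14.8% with GC offsets, and 16.8% and 14.3% with GC offsets and the replicate block. Without Control 5 and Induced 2 they were 33.8% and 30.5%. With totals alone 15 members, 3 TRIM and 3 F-box genes were lower and 19 RNF genes higher, and the medians of RNF, TRIM and F-box genes were 0.27, 0.17 and 0.67. Without the filter 5 RNF genes were higher and the RNF median was 0.011. With GC offsets 23 members, 6 RNF and 10 F-box genes were higher and 5 TRIM and 3 F-box genes lower, with medians of -0.19, 0.037 and 0.23, and FBXO5 turned to -0.016 (main 0.48). With GC offsets and the replicate block 17 members, 5 TRIM and 2 F-box genes were lower and 6 TRIM genes higher, with medians of -0.18, 0.041 and 0.23. With 1 surrogate variable 0 members, 0 RNF, 0 TRIM and 0 F-box genes were higher or lower (43 members at an unadjusted P under 0.05 in edgeR, medians 0.071 for TRIM and 0.21 for F-box). Without Control 5 and Induced 2, chosen after seeing the data, 19 RNF genes were higher and 20 lower (RNF median -0.060).

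Leaving out 1 library gave 11 to 51 members higher and 9 to 38 lower, 3 to 15 RNF genes higher and 6 to 20 lower, 2 to 13 TRIM genes higher and 2 to 10 lower, and 5 to 23 F-box genes higher and 1 to 8 lower. The medians were -0.010 to 0.078 for RNF, -0.12 to -0.03 for TRIM and 0.31 to 0.47 for F-box genes. The lowest counts came without Induced 1 or Control 2 and the highest without Control 5. In the same fits 6.99% to 31.2% of all genes were called higher and 7.14% to 27.4% lower. For the difference of the responses (main 0 higher, 1 lower), DESeq2 gave 7 and 7, totals alone 4 and 0, filterByExpr 0 and 0, no filter 2 and 0, the replicate block 2 and 1, GC offsets 2 and 1, leaving out 1 library 0 to 10 higher and 0 to 13 lower, and leaving out Control 5 and Induced 2 18 and 15. These counts stand beside 142 members tested with DESeq2 and with totals alone, and 140 without Control 5, with or without Induced 2. Of all genes, DESeq2 called 4.79% higher and 7.16% lower, and totals alone 3.35% and 0.294%. The shares were 8.45% and 10.4% without Control 5, and 11.7% and 13.6% without Control 5 and Induced 2. The causes were not tested.

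Paired by replicate number, the replicate block gave 39 members higher and 24 lower (22.5% and 17.3% of all genes). It kept 57 of the 68 main calls and gave 15 F-box genes higher. In the parental line it gave 0 and 0, as did all other settings run (DESeq2 included), with 2 members at an unadjusted P under 0.05 in the main fit. Depth limits the parental line, where 100 members passed the filter against 149 in the transgene line. Its larger shares of tags outside genes and of mitochondrially encoded genes may limit it too, which was not tested. Members with few counts, the 64 untested among them, were not measured well enough to be compared.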

Other observations

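Members that passed the test were also those that varied most within a group. The median coefficient of variation over Control libraries was 36.5% for the 40 members that rose, 27.4% for the 28 that fell and 20.9% for the 81 not called, and over Induced libraries 29.3%, 21.1% and 18.5%. Levels and responses were inversely related: Spearman's rho across the 149 members between the mean Control CPM and the log2 fold change was -0.45, and -0.28 across all 13038 genes tested. Genes are not independent replicates and share the libraries, and both measures use the Control counts.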
